A study of Mus musculus with 18 samples.

Results

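The E2F transcription factors, Foxm1 and Mybl2 were followed through 18 mouse melanoma allografts. The set holds 10 genes, E2f1 to E2f8, Foxm1 and Mybl2, chosen by name with earlier results of these data known. They are read by 22 of the 34945 probe sets that carry a single gene symbol in the platform annotation. All 10 genes and 19 of the 22 probe sets were above the limit for low values. A further probe set pairs Foxm1 with other symbols and was left out.

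All tumours grew from 1 cell line, iNRAS-475, a mouse melanoma line with a doxycycline-inducible NRAS, injected into the dermis of nude mice that drank water with 2 mg/ml doxycycline. Nude mice lack mature T cells and keep other host cells such as macrophages. After 6 weeks, with tumours of 200 to 500 mm3, there were 3 groups of 6 distinct tumours. Vehicle tumours received the carrier while doxycycline went on. MEK inhibitor tumours received 100 mg/kg AZD6244 (selumetinib, which blocks MEK1 and MEK2) for 4 days. In the tumours labelled -NRAS, here NRAS-off, doxycycline was withdrawn for 4 days, so loss of the drug doxycycline and loss of the oncogene cannot be told apart. The promoter that drives the transgene and the age and sex of the mice are not given in the sources used here.

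E2F proteins bind the promoters of genes for DNA synthesis and cell cycle entry. E2F1, E2F2 and E2F3 activate these genes once cyclin-dependent kinases have released them from the retinoblastoma protein RB. E2F4 and E2F5 act mainly as repressors with the RB relatives p107 and p130, E2F6 represses with Polycomb proteins, and the atypical E2F7 and E2F8 bind DNA without the dimer partners DP1 and DP2 and repress the genes that the activators switch on. The genes E2f1, E2f7 and E2f8 are themselves E2F targets. B-MYB, the product of Mybl2, and FOXM1 act later in the cycle, with the MuvB complex, on genes for mitosis.

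The arrays were alike in overall level, with a median intensity of 72.3 to 78.5, and tumours of the same group correlated at 0.978 to 0.997 over 15005 tested genes. Of 9 melanocytic markers 7 were above the limit in the mean of all arrays, with Sox10 and Mitf among them, and the pigment enzyme genes Tyr and Tyrp1 were not. Of these 7 markers 5 rose and 0 fell in NRAS-off against vehicle tumours, and 2 rose and 0 fell in MEK inhibitor against vehicle tumours. Over all tested genes 31.8% rose and 27.5% fell in the first comparison, and 24.3% rose and 20.9% fell in the second. The 2 of 7 rises under the inhibitor are near that share. The summed intensity of the 9 was 9915 to 13285 in NRAS-off, 9189 to 11293 in vehicle and 12550 to 17852 in MEK inhibitor tumours. Most of this sum was Sox10 alone, with means of 9564, 9200 and 13051 in the same order. The sum therefore follows 1 gene and does not measure melanocytic content. The NRAS-off tumours held more transcript of several other cell types, though not of all that were listed. Against vehicle, 7 of 8 endothelial and all 5 tested lymphoid and NK markers rose in them. None of 7 keratinocyte and 3 tested erythroid markers was called. The summed intensity of 12 macrophage markers was 43963 to 61929 in NRAS-off, 17858 to 29295 in vehicle and 8736 to 19779 in MEK inhibitor tumours, and 10 fibroblast markers summed to 181427 to 215590, 78297 to 96230 and 121127 to 128289. Of these macrophage markers 10 rose and 0 fell in NRAS-off against vehicle tumours and 0 rose and 9 fell in MEK inhibitor against vehicle tumours; of the fibroblast markers 8 rose and 2 fell, and 7 rose and 1 fell. All 8 skeletal muscle markers rose in both treated groups. Summed keratinocyte markers reached 30241 in 1 NRAS-off tumour, replicate 2, whose mean correlation with its group was also the lowest (0.981). The part of these cells in the results below was not tested. In whole tumours, fewer cells of a type and less RNA per cell cannot be told apart.

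In NRAS-off tumours 8 of the 10 genes fell against vehicle and none rose, with the 2 atypical repressor genes E2f7 and E2f8 down to 16.9% and 25.9% of the vehicle mean intensity. In MEK inhibitor tumours E2f3, E2f5 and E2f6 fell, Foxm1 rose, and E2f1, E2f7, E2f8 and Mybl2 gave no call. E2f2 and E2f4 gave no call in any comparison. The direct comparison of the treated groups found E2f1, E2f3, E2f6, E2f7, E2f8, Foxm1 and Mybl2 lower in NRAS-off tumours. A call is an adjusted p under 0.05 in limma, fitted over all 15005 tested genes with Benjamini-Hochberg adjustment. Of all tested genes 59.3% were called in NRAS-off against vehicle tumours, with 31.8% up and 27.5% down. The share was 45.2% in MEK inhibitor against vehicle, with 24.3% up and 20.9% down, and 47.0% between the treated groups, with 24.3% higher and 22.7% lower in NRAS-off. The 4 of 10 called under the inhibitor are a share near that background. Log2 changes below are on the log2(intensity + 16) scale with their standard error and 6 tumours per group, which understates the change of dim probe sets, and 1 probe set stands for a gene unless others are named.

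**Figure D1:**
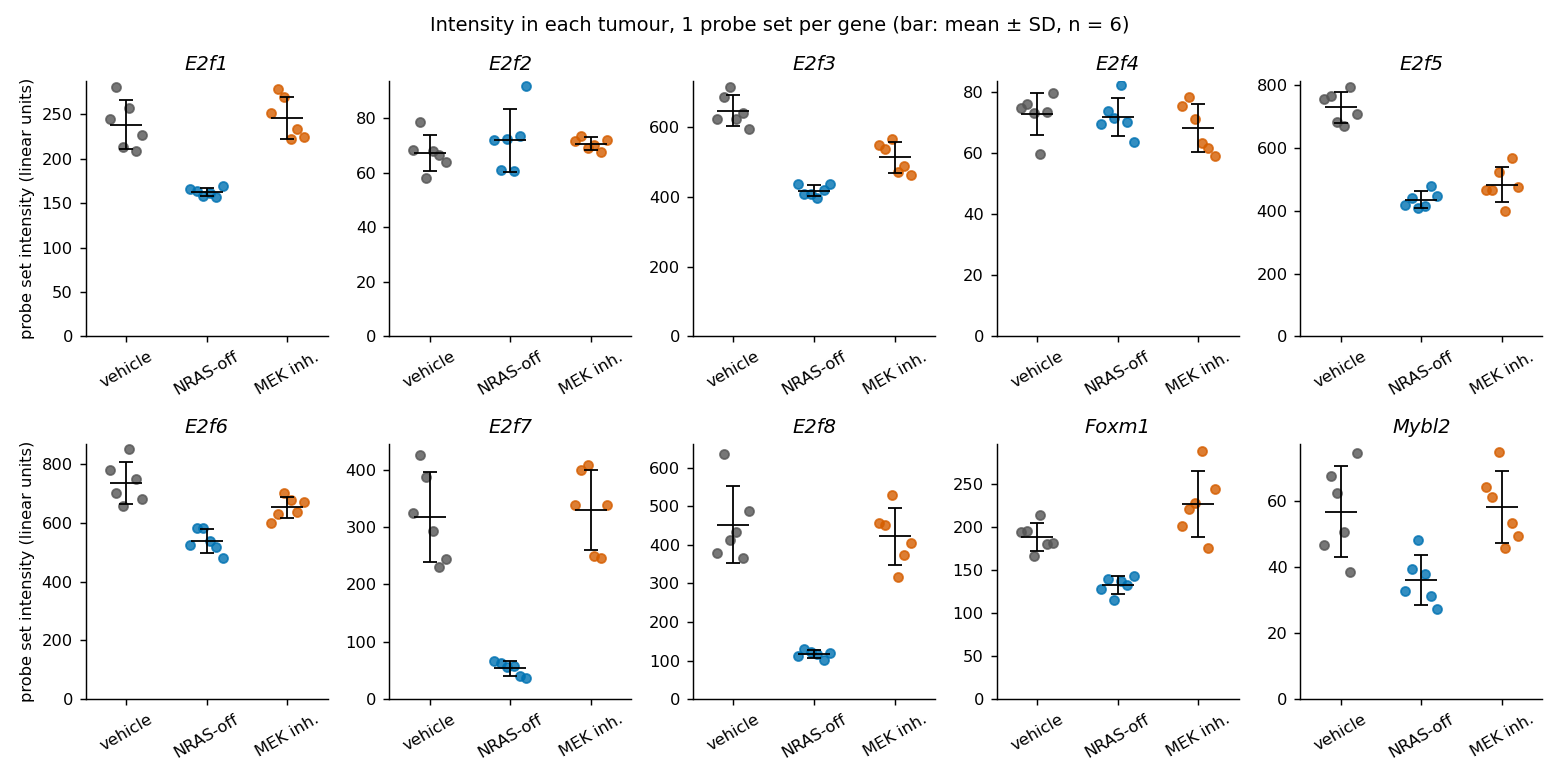
Probe set intensity (linear units, vertical axis) of the 10 genes in each of 18 tumours by group, with 1 point per tumour and bars for the mean ± SD (n = 6). The NRAS-off tumours lie wholly below vehicle tumours for E2f1, E2f3, E2f5, E2f6, E2f7, E2f8 and Foxm1, while under the MEK inhibitor the points of E2f1, E2f7, E2f8 and Mybl2 overlap the vehicle points.

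E2f7 and E2f8 changed most among the 10 genes in NRAS-off tumours. E2f7 intensity ran from 230.3 to 426 in vehicle tumours (median 309), from 36.6 to 67.2 in NRAS-off tumours (median 57.0) and from 245 to 409 in MEK inhibitor tumours (median 338). The highest NRAS-off tumour was far below the lowest of either other group, and the vehicle and inhibitor ranges overlapped nearly throughout. The mean went from 317 ± 77.8 (SD, n = 6) to 53.5 ± 12.5, a fall of 2.25 ± 0.16 (limma adjusted p = 9.26e-10), and it was 329.8 ± 70.2 under the inhibitor, a difference of 0.06 ± 0.16 (adjusted p = 0.802). The 95% interval of that difference, −0.28 to 0.40, is wide, so a rise or a fall of E2f7 within it is compatible with these values. Only 0.793% of tested genes had a lower change than E2f7 in NRAS-off against vehicle tumours.

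E2f8 ran from 365 to 636 in vehicle (median 424), 101 to 131 in NRAS-off (median 119) and 316 to 529 in MEK inhibitor tumours (median 428). Again the NRAS-off tumours formed a separate low band. The mean went from 453 ± 99.5 to 117 ± 9.87, a fall of 1.79 ± 0.12 (limma adjusted p = 4.24e-10). Under the inhibitor it was 422 ± 73.9, a difference of −0.09 ± 0.12 (adjusted p = 0.585, interval −0.35 to 0.16). Between the treated groups E2f7 was lower in NRAS-off tumours by 2.31 ± 0.16 and E2f8 by 1.70 ± 0.12 (limma adjusted p = 1.63e-09 and 2.13e-09). A second E2f8 probe set stayed under the limit in the mean of all arrays (15.6 to 23.9 over the 18 tumours) and was not tested; averaged with it, the E2f8 fall was 0.97.

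The promoter sequences of these genes are shown because E2f7 and E2f8 moved most and are known E2F targets, and E2f3 because it separated all 3 groups. RefSeq promoter windows, 250 bases before to 50 after an annotated start on GRCm38.p6, were matched for 7 of the 10 genes (9 windows, with 2 each for E2f2 and E2f3). The motifs searched on both strands were an E2F site (TTCCCGC or TTGGCGC or TTCGCGC or TTGCCGC), the cell cycle homology region or CHR (TTTGAA or TTCGAA), which MuvB binds, the CCAAT box (CCAAT) of the factor NF-Y, and a MYB site (AACNG). Capitals mark E2F, CHR and CCAAT matches in the 250 bases before the start, 5′ to 3′ on the gene's strand. E2f7 is at chr10:110745189-110745438 on the plus strand, E2f8 at chr7:48881597-48881846 on the minus strand and E2f3 at chr13:29986064-29986313 on the minus strand.
E2f7: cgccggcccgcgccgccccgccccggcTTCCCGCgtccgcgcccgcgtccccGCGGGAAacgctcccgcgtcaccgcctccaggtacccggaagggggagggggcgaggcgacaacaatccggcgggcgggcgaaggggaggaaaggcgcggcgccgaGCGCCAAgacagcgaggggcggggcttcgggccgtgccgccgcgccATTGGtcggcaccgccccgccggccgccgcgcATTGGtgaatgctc
E2f8: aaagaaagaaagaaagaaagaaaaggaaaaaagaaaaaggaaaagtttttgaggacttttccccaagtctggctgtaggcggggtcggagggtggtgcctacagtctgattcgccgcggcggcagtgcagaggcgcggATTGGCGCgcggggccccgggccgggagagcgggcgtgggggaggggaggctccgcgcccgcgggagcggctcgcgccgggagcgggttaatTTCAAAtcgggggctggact
E2f3: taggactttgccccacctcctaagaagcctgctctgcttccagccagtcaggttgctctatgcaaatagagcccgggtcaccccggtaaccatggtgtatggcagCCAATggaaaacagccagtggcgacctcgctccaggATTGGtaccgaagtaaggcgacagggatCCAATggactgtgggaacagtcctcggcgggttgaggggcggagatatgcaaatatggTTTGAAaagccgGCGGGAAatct

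The E2f7 window held E2F matches 223, 198 and 92 bases before the start and CCAAT boxes at 46 and 14. The E2f8 window held an E2F match at 111, which shares bases with a CCAAT box at 112 on the reverse strand, and a CHR match at 20. In the E2f3 window 3 CCAAT boxes at 145, 109 and 81 were followed by a CHR match at 23 and an E2F match at 11, and a second E2F match lay after the start. The E2F motif was found in 4 of the 9 windows, 1 each of E2f2, E2f3, E2f7 and E2f8, against 9.57% of all 32851 windows of this length. E2F matches at 3 or more places occurred in 0.131% of all windows, and E2F, CHR and CCAAT together in 0.499%. Both combinations are those held by the windows shown, so these shares are a description and not a test. The windows were not matched for base composition. CHR matches occurred in 19.2%, CCAAT boxes in 37.4% and MYB sites, which are short, in 80.3% of windows. The windows of E2f1, E2f6 and Mybl2 held none of the searched E2F letters, which says only that those letters are not in these bases. The Mybl2 window does hold the near form TTGGCGG, and such forms were not searched. Whether the annotated starts used for these genes are their main starts was not tested, and a window may lie inside its gene and not at its promoter. A lack of E2F sites in the promoters of these genes therefore cannot be read from this. E2f2, with an E2F match 41 bases after 1 start, gave no call in any comparison, and the second E2f3 window held no match.

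**Figure D2:**
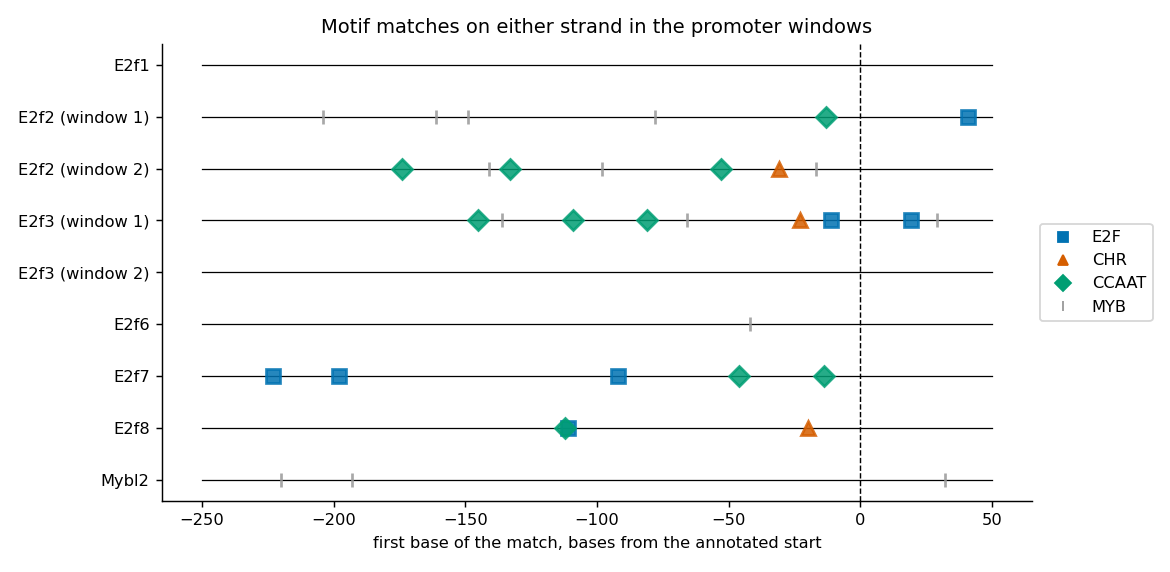
Position of each motif match (horizontal axis, bases from the annotated start) in the 9 windows at annotated starts of 7 genes. Squares mark E2F, triangles CHR, diamonds CCAAT and ticks MYB. E2f7 has 3 E2F squares upstream, and in E2f8 the E2F and CCAAT marks at 111 and 112 bases before the start overlap.

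Of the activators, E2f1 fell in NRAS-off tumours and gave no call under the inhibitor. E2f1 ran from 209 to 281 in vehicle (median 235), 157 to 169 in NRAS-off (median 163) and 222 to 278 in MEK inhibitor tumours (median 242). The NRAS-off values were tightly bunched below both other groups. The mean went from 239 ± 27.9 to 163 ± 4.79 (SD, n = 6), a fall of 0.50 ± 0.07 (limma adjusted p = 4.06e-06), and was 246 ± 23.7 under the inhibitor, a difference of 0.05 ± 0.07 (adjusted p = 0.628, interval −0.10 to 0.19). A second E2f1 probe set (1431875_a_at) gave a fall of 0.48 ± 0.07 in NRAS-off tumours and 0.02 ± 0.07 under the inhibitor. The third (1447840_x_at), dim at 22.1 to 41.4 and of a class that can bind other transcripts, differed by −0.14 ± 0.06 in NRAS-off tumours and did not pass (adjusted p = 0.0567 over all 27656 tested probe sets).

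E2f3 stepped down from group to group. It ran from 595 to 716 in vehicle (median 632), 463 to 566 in MEK inhibitor (median 513) and 397 to 437 in NRAS-off tumours (median 414). No range overlapped another. The fall was 0.61 ± 0.06 in NRAS-off tumours and 0.33 ± 0.06 under the inhibitor (limma adjusted p = 3.56e-08 and 0.000129), and the 0.28 ± 0.06 between the treated groups also passed (adjusted p = 0.000485). The second E2f3 probe set (1427462_at) fell by 0.31 ± 0.07 and 0.30 ± 0.07 and did not separate the treated groups (−0.01 ± 0.07, adjusted p = 0.9), so the step between them rests on 1 of 2 probe sets and was −0.15 when both were averaged.

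E2f2, the remaining activator, ran from 58.1 to 78.7 in vehicle, 60.6 to 92.1 in NRAS-off and 67.6 to 73.7 in MEK inhibitor tumours. All 3 ranges overlapped. The differences from vehicle were 0.07 ± 0.07 and 0.06 ± 0.07 (limma adjusted p = 0.407 and 0.525), with intervals of −0.08 to 0.22 and −0.09 to 0.21. A second E2f2 probe set was below the limit and not tested.

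Of the repressors that act with pocket proteins, E2f5 fell in both treated groups. Its probe set 1460207_s_at ran from 669 to 794 in vehicle (median 732), 409 to 479 in NRAS-off (median 429.8) and 399 to 568 in MEK inhibitor tumours (median 472). Every treated tumour was below every vehicle tumour, and the treated groups overlapped. The falls were 0.72 ± 0.07 and 0.58 ± 0.07 (limma adjusted p = 4.97e-08 and 1.93e-06). Between the treated groups the difference was −0.14 ± 0.07 and did not pass (adjusted p = 0.108, interval −0.29 to 0.01), but it passed without MEK inhibitor replicate 4 (−0.19, adjusted p = 0.0174). Probe set 1417444_at gave falls of 0.65 ± 0.10 and 0.60 ± 0.10. The third E2f5 probe set, 1447625_at, went against both: it ran from 205 to 274 in vehicle, 198 to 237 in NRAS-off and 174 to 308 in MEK inhibitor tumours and differed by −0.03 ± 0.10 and −0.09 ± 0.10 (limma adjusted p = 0.837 and 0.504).

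E2f4, whose product is the other pocket protein partner among the repressors, was read by 1 probe set. It ran from 59.6 to 79.7 in vehicle, 63.5 to 82.3 in NRAS-off and 58.8 to 78.2 in MEK inhibitor tumours, with medians of 74.0, 70.7 and 67.3. The ranges overlapped almost wholly. The differences from vehicle were −0.02 ± 0.07 and −0.08 ± 0.07 (limma adjusted p = 0.867 and 0.383), and the intervals, −0.16 to 0.13 and −0.22 to 0.07, bound the changes that these arrays allow.

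E2f6 fell in NRAS-off tumours. It ran from 659 to 852 in vehicle (median 727), 480.1 to 585 in NRAS-off (median 532) and 602 to 702 in MEK inhibitor tumours (median 655). NRAS-off tumours lay below both other groups, which overlapped each other. The fall was 0.44 ± 0.06 (limma adjusted p = 8.75e-06), and a second probe set (1437914_at) fell by 0.43 ± 0.08. Under the inhibitor the probe sets fell by 0.17 ± 0.06 (adjusted p = 0.0417) and 0.23 ± 0.08 (adjusted p = 0.0286 over all probe sets). The first of these calls is marginal: it ended without any 1 of vehicle replicates 1, 4 and 5 or MEK inhibitor replicates 1, 2 and 5 (−0.126 to −0.161). E2f6 was lower in NRAS-off than in MEK inhibitor tumours by 0.27 ± 0.06 (adjusted p = 0.00168).

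**Figure D3:**
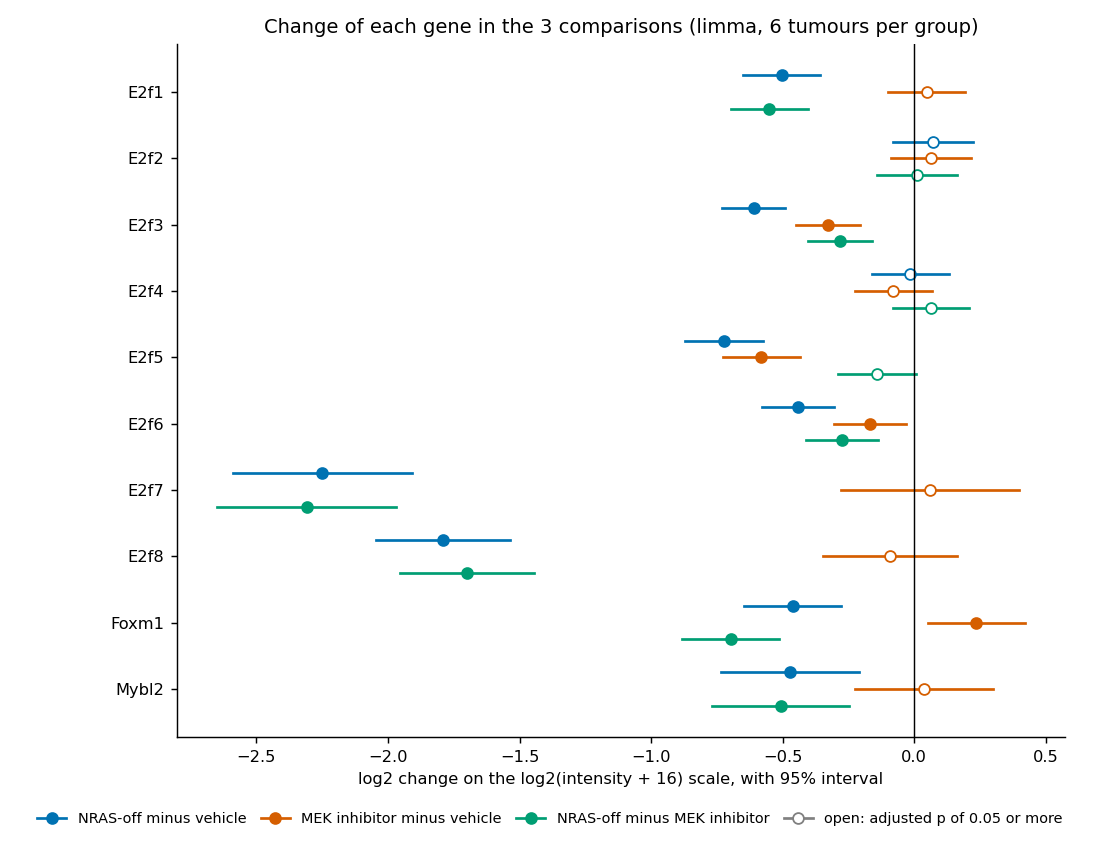
Log2 change of each gene (points, limma) with its 95% interval (lines) in the 3 comparisons, 6 tumours per group; filled points have an adjusted p under 0.05. The intervals of E2f7 and E2f8 in both comparisons with NRAS-off tumours lie below −1.4, while those of E2f2 and E2f4 include 0 throughout.

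Foxm1 was the member with opposite calls in the 2 treated groups. It ran from 166 to 214 in vehicle (median 188), 115 to 144 in NRAS-off (median 135) and 176 to 288 in MEK inhibitor tumours (median 225). NRAS-off tumours were the lowest 6 of 18, and inhibitor tumours overlapped vehicle but reached higher. The fall in NRAS-off tumours was 0.46 ± 0.09 (limma adjusted p = 0.000158) and the rise under the inhibitor 0.24 ± 0.09 (adjusted p = 0.0349). Between the treated groups Foxm1 was lower in NRAS-off tumours by 0.70 ± 0.09 (adjusted p = 2.33e-06). The rise did not pass without any 1 of vehicle replicates 3, 5 and 6 or MEK inhibitor replicates 2, 3, 4 and 6 (0.168 to 0.239).

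The other Foxm1 probe sets moved the same way. 1417748_x_at, also of the class that can bind other transcripts, ran from 145 to 185 in vehicle, 93.7 to 116 in NRAS-off and 197 to 243 in MEK inhibitor tumours. In it no group overlapped another, with a fall of 0.57 ± 0.07 and a rise of 0.35 ± 0.07 (limma adjusted p = 4.91e-07 and 0.000268). 1448834_at fell to 49.9% of the vehicle mean in NRAS-off tumours, a fall of 0.82 ± 0.09, and its difference under the inhibitor, 0.23 ± 0.09, fell just short (adjusted p = 0.0513). The size of the NRAS-off fall thus ranged from 0.46 to 0.82 with the probe set used. Another Foxm1 probe set read 10.1 to 14.1 in the 18 tumours, below the limit, and was not tested.

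Mybl2 fell in NRAS-off tumours with overlap. It ran from 38.3 to 74.5 in vehicle (median 56.5), 27.2 to 48.2 in NRAS-off (median 35.3) and 45.6 to 74.9 in MEK inhibitor tumours (median 57.2). NRAS-off replicate 3 reached into both other ranges and replicate 2, at 39.2, into the vehicle range alone, and the vehicle tumours were spread widely, with an SD of 24.2% of their mean. The mean went from 56.6 ± 13.7 to 36.0 ± 7.44 (SD, n = 6), a fall of 0.47 ± 0.12 (limma adjusted p = 0.003), and was 58.0 ± 10.8 under the inhibitor, a difference of 0.04 ± 0.12 (adjusted p = 0.844, interval −0.22 to 0.30). Mybl2 was lower in NRAS-off than in inhibitor tumours by 0.51 ± 0.12 (adjusted p = 0.0023). The second probe set (1454946_at), at 22.9 to 43.5, fell by 0.20 ± 0.08 in NRAS-off tumours (adjusted p = 0.0369). Both are dim, so the fitted fall depends on the added constant: it was 0.63 with a constant of 1 and 0.27 with 64.

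**Figure D4:**
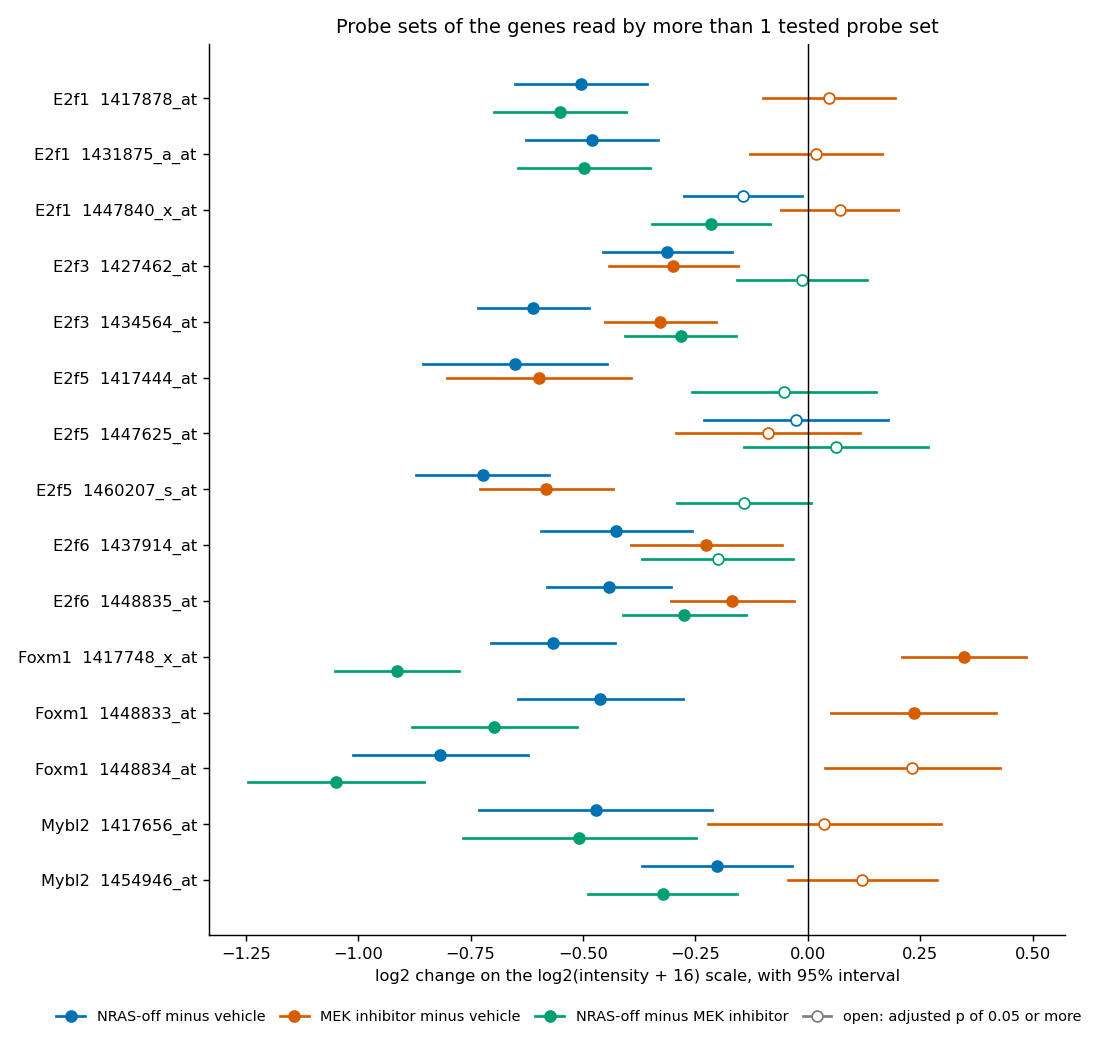
Log2 change with 95% interval for every tested probe set of the 6 genes read by more than 1 tested probe set, in the 3 comparisons; filled points have an adjusted p under 0.05. The 3 Foxm1 probe sets agree in direction, while E2f5 1447625_at lies near 0 beside 2 E2f5 probe sets that fell.

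Over probe sets, 15 of 19 were called in NRAS-off against vehicle tumours, and all 15 fell (over all tested probe sets 56.4% were called, 27.8% up and 28.6% down). Under the inhibitor 6 fell and 2 rose (over all 42.9% were called, 20.9% up and 21.9% down), and 12 were lower in NRAS-off than in inhibitor tumours (over all 42.5% were called, 21.3% higher and 21.2% lower). By gene, the groups did not overlap for 7 of 10 genes in NRAS-off against vehicle (39.2% of all tested genes, 20.8% higher and 18.4% lower), for 2, E2f3 and E2f5, under the inhibitor (25.5%, 12.8% higher and 12.7% lower), and for 6 between the treated groups (28.3%, with 13.3% lower in NRAS-off). The median change of the 10 genes was −0.49, −0.02 and −0.40 in the 3 comparisons, where the median of all tested genes was 0.00, 0.01 and −0.01.

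The regulators above the E2F proteins changed in both directions. RB and its relatives are held off E2F by cyclin D and cyclin E kinases, which CDK inhibitors block. Of 15 listed cyclin, kinase and inhibitor genes 4 rose and 9 fell in NRAS-off tumours, and 5 rose and 3 fell under the inhibitor. Of all tested genes 31.8% rose and 27.5% fell in NRAS-off tumours, and 24.3% rose and 20.9% fell under the inhibitor. The inhibitor count of this list is near that background. The list's largest changes in NRAS-off tumours were in Cdkn1c (p57), which rose by 3.76 ± 0.19, Ccnd1 (cyclin D1), which fell by 3.13 ± 0.13, Cdkn2b, which fell by 1.48 ± 0.08, and Ccne2 (cyclin E2), which fell by 1.25 ± 0.15. Under the inhibitor Ccnd1 fell by 1.05 ± 0.13 and Cdkn2b by 1.05 ± 0.08, while Cdkn2c rose by 0.91 ± 0.08 and Ccne2, an E2F target, by 0.60 ± 0.15 (limma adjusted p = 1.68e-06, 8.05e-09, 6.47e-08 and 0.00366). Both contrasts use the same vehicle arrays. Compared directly, Ccne2 was lower in NRAS-off than in inhibitor tumours by 1.85 ± 0.15 (adjusted p = 1.43e-08).

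The pocket protein genes did not move as one. Rbl1, which encodes p107 and is an E2F target itself, fell by 0.74 ± 0.14 in NRAS-off tumours and rose by 0.51 ± 0.14 under the inhibitor (limma adjusted p = 0.00012 and 0.00474). Rbl2 (p130) rose in both, by 0.50 ± 0.07 and 0.41 ± 0.07, and Rb1 rose by 0.22 ± 0.08 and 0.52 ± 0.08. Of the dimer partners, Tfdp1 (DP1) fell by 0.36 ± 0.06 in NRAS-off tumours and gave no call under the inhibitor (−0.08 ± 0.06, adjusted p = 0.302), and Tfdp2 (DP2) rose by 0.29 ± 0.06 and 0.54 ± 0.06.

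Among the partners of B-MYB, the 7 listed MuvB and MYB family genes gave 3 rises and 3 falls in NRAS-off tumours and 3 rises under the inhibitor. Mybl1 (A-MYB) fell by 1.01 ± 0.14 and rose by 0.44 ± 0.14 (limma adjusted p = 3.86e-06 and 0.0138). Lin9 of the MuvB core fell by 0.31 ± 0.10 and rose by 0.37 ± 0.10, and Lin54, its DNA-binding subunit, fell by 0.37 ± 0.07 and differed by 0.03 ± 0.07 under the inhibitor (adjusted p = 0.798). The rises in NRAS-off tumours were in the MuvB genes Lin37 (0.30 ± 0.07) and Lin52 (0.27 ± 0.11) and in Myb (0.23 ± 0.09), with limma adjusted p of 0.000992, 0.0366 and 0.0371, and none of these passed under the inhibitor. The third rise under the inhibitor was in the MuvB gene Rbbp4 (0.39 ± 0.05, adjusted p = 7.16e-06), which differed by 0.02 ± 0.05 in NRAS-off tumours (adjusted p = 0.706). Of 9 tested genes of the E2F6 repressor complex 3 rose and 2 fell in each treated group against vehicle. Of all tested genes 59.3% were called in NRAS-off and 45.2% in MEK inhibitor tumours against vehicle. The counts of this complex, and the MuvB and MYB count under the inhibitor, are near those shares. Epc1 rose by 0.73 ± 0.05 and 0.47 ± 0.05 and Rnf2, a Polycomb ubiquitin ligase gene, by 0.64 ± 0.07 in both. Mga rose by 0.42 ± 0.09 and 0.43 ± 0.09, and Yaf2 fell by 0.54 ± 0.05 and 0.23 ± 0.05. Max, the MYC partner that also sits in this complex, fell by 0.76 ± 0.12 under the inhibitor (adjusted p = 4.27e-05) and differed by −0.12 ± 0.12 in NRAS-off tumours (adjusted p = 0.393).

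Most tested target genes fell in NRAS-off tumours, and most rose under the inhibitor. Of 22 tested E2F target genes of G1/S 20 fell and 0 rose in NRAS-off tumours (median −1.06), and 14 rose and 1 fell under the inhibitor (median 0.37). Orc1, an origin recognition gene, and Tyms, the thymidylate synthase gene, gave no call in NRAS-off tumours (−0.10 ± 0.09 and 0.03 ± 0.10, limma adjusted p = 0.34 and 0.791). The fall under the inhibitor was Cdt1, a replication licensing factor gene (0.30 ± 0.11, limma adjusted p = 0.0276), and that call ended without MEK inhibitor replicate 4, which left 15 up and 0 down. Uhrf1, which encodes a DNA methylation maintenance factor, fell by 2.49 ± 0.13 in NRAS-off tumours and differed by 0.29 ± 0.13 under the inhibitor (adjusted p = 0.0888). Rrm2, a ribonucleotide reductase subunit gene, fell by 2.31 ± 0.13 and rose by 0.47 ± 0.13. Ccna2 (cyclin A2) fell by 1.73 ± 0.13 and rose by 0.84 ± 0.13.

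All 24 tested FOXM1 and B-MYB target genes of G2/M fell in NRAS-off tumours (median −1.56), and 22 rose and 0 fell under the inhibitor (median 0.54). The mitotic kinase gene Bub1 fell by 2.32 ± 0.19 and Top2a, a topoisomerase gene, by 2.10 ± 0.15. Under the inhibitor the kinetochore gene Cenpf rose by 0.93 ± 0.16 and Top2a by 0.76 ± 0.15. Aurka and Cdc25b gave no call under the inhibitor (0.28 ± 0.14 and −0.00 ± 0.11, limma adjusted p = 0.106 and 0.988). Beside these medians, Foxm1 and Mybl2 themselves stood at −0.46 and −0.47 in NRAS-off and at 0.24 and 0.04 in inhibitor tumours, the last without a call (limma adjusted p = 0.844). The median of all tested genes was 0.00 and 0.01 in these comparisons. Foxm1 and Mybl2 are each given here by 1 probe set. In NRAS-off tumours another Foxm1 probe set fell by 0.82, and the Mybl2 fall was 0.63 with a constant of 1 and 0.27 with 64. Whether the factors changed less than their targets was not tested. Without NRAS-off replicate 2 the counts were again 20 and 24 down, and without MEK inhibitor replicate 4 the G2/M count was 21 up. These lists were drawn up with earlier results of these data known, so their direction is a description.

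**Figure D5:**
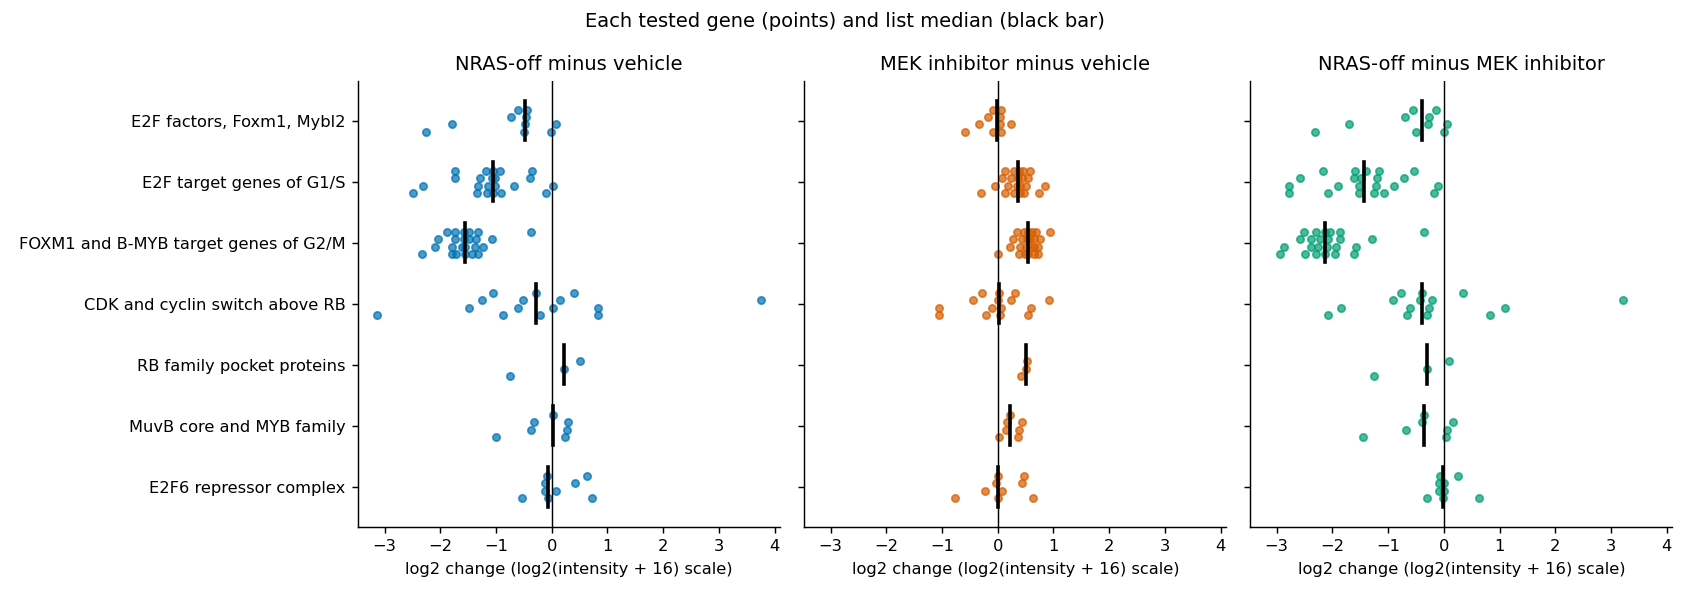
Log2 change of each tested gene (points) with the list median (black bar) for the 10 genes and 6 related lists in the 3 comparisons. The G1/S and G2/M target lists lie mostly left of 0 in NRAS-off and mostly right of 0 in inhibitor against vehicle tumours, with medians of −1.06 and −1.56, and 0.37 and 0.54.

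Genes with the most similar pattern over the 18 tumours were named by Pearson correlation of log2 values, as a description, since the 3 groups set most of it: 94.1% of the variance of E2f8 and 93.7% of that of E2f7 lay between groups, against 54.4% for Mybl2, 9.18% for E2f4 and 7.20% for E2f2. For E2f8 they were Cenpq, Itga6, Uhrf1, Cdkn2aipnl and E2f7 (r = 0.98 to 0.97), and for E2f7 Tubg1, Uhrf1 and Cdkn2aipnl (all 0.98). E2f1 was most like Pold2, E2f8, Nelfe, Wdhd1 and Ccnf (0.97 to 0.95), of which Pold2 and Wdhd1 encode replication proteins. Foxm1 was most like Cdca7l, Ipo9, Nde1, Ticrr and Dnph1 (0.93 to 0.92), and Mybl2 most like Nup133, Fancb, Plod3, Stt3b and Cdc6 (0.92 to 0.87).

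Of the members that fell in both treated groups, E2f3 was most like Lancl3, Parvb and Fip1l1 (r = 0.98 to 0.97 over 18 tumours), E2f5 most like the ribosome assembly gene Rrs1, Jade3 and Mbtps2 (0.97 to 0.96), and E2f6 most like Ndufaf7, Pigf and Ddx1 (0.94 to 0.93). For E2f2 and E2f4 the highest r was 0.75, with 1700049J03Rik, and 0.76, with Naa16. After the group means were taken off, r was 0.74 for E2f1 and E2f8 (0.71, 0.36 and 0.83 within vehicle, NRAS-off and MEK inhibitor tumours) and 0.75 for E2f8 and Mybl2 over the 18 tumours, while Foxm1 and E2f7 were at −0.06 and Foxm1 and E2f8 at −0.10. After this step E2f8 with Mybl2 and E2f1 with E2f8 had the highest r of all pairs of members, and E2f8 with Mybl2 was not a pair chosen in advance. The lowest was −0.49, for E2f5 with Foxm1. The points share arrays and their scaling.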

How the data were processed

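RNA of 18 tumours was read on one-colour Affymetrix arrays from 10 ug of biotin-labelled total RNA per the labels' protocols. The deposited table holds linear intensity values, 1 per probe set and tumour, already summarised by the authors; the submitters' processing notes name MAS5 and RMA without saying which made it. The scale was read from the values.

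Of 45037 probe sets 34945 had 1 symbol, 932 several and 9160 none. The brightest probe set on average stood for its gene. Tests used log2(intensity + 16), and means at or below the 25th percentile (intensity 23.5) were left out, leaving 15005 genes. The 3 groups were fitted together in limma 3.58.1 (R 4.3.3) with 15 residual degrees of freedom and Benjamini-Hochberg adjustment. A second fit took all 27656 single-symbol probe sets above the limit. On simulated NRAS-off against vehicle data of 15005 genes the fit called 94.0% of the genes set to change by 1.5-fold. It called 97.0% of those at 2-fold and 100% at 4-fold, and made 13 false calls among the genes not set to change. Only a small part of the genes was set to change, with independent noise per gene, whereas 59.3% were called in the tumours. The simulation therefore does not give the error rate of the real comparison. The number of arrays limits the precision, and no batch is given in the sources used here.

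All 10 genes were named with every probe set, together with the most changed genes of each list (up to 4) and the 3 or 5 genes most like each member. Cdt1, Orc1, Tyms, Aurka, Cdc25b, Lin52 and Myb were named after their values were seen. The members and lists were chosen with earlier results of these data known. Alternatives changed the filter, probe set, scaling, constant, samples, replicate block and single tumours; leaving out 2 tumours that stand apart for the target lists was chosen after seeing the data. Figures used matplotlib 3.10.9.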

Additional observations from a re-analysis of the deposited data

Results flagged for a closer look

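Single tumours stood apart from the other 5 of their group in 6 of 57 sets of 6 values (19 tested probe sets in 3 groups), where chance alone gives about 1 in 20. MEK inhibitor replicate 4 was far from its group in 2 E2f5 probe sets, in opposite directions: lowest at 236 in 1417444_at (the others 319 to 369) and highest at 308 in 1447625_at (the others 174 to 218). Its array also had the lowest upper quartile of intensity in its group, 343 against 358 to 369. NRAS-off replicate 5 was highest for E2f5 1417444_at at 347 (the others 293 to 311). NRAS-off replicate 4 was lowest for E2f6 1437914_at at 35.5 (the others 42.6 to 46.2). MEK inhibitor replicate 1 was highest for the dim E2f1 probe set 1447840_x_at at 41.4 (the others 26.6 to 32.1). Vehicle replicate 4 was lowest for E2f4 at 59.6 (the others 73.0 to 79.7).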

How the results depend on the processing

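Of 648 refitted gene values (10 genes, 3 comparisons) 628 kept their direction or stayed uncalled, 19 lost their call, 1 gained one and 0 reversed. The lost calls were the Foxm1 rise under the inhibitor, the E2f6 fall under the inhibitor and the E2f6 difference between the treated groups, and the gained one was E2f5 between the treated groups. The count of 4 genes called under the inhibitor was 2 when only both compared groups were fitted and 2 to 4 when single tumours were left out (2 without vehicle replicate 5 or MEK inhibitor replicate 2). The Foxm1 rise did not pass with the most variable probe set (0.23, adjusted p = 0.0506), with quantile normalization (0.21, adjusted p = 0.0807) or with only the compared groups (0.24, adjusted p = 0.0596). The E2f6 fall under the inhibitor did not pass with only the compared groups (adjusted p = 0.0554) or with the replicate block (adjusted p = 0.0606). The E2f6 difference between the treated groups did not pass with its most variable probe set (−0.20, adjusted p = 0.0518). The single E2F target gene called lower under the inhibitor was 0 without MEK inhibitor replicate 4. In NRAS-off against vehicle 8 genes were called, 7 with a filter at the 50th percentile, which drops Mybl2, E2f2 and E2f4. The cause of the other changes was not tested. Equal replicate numbers gave no steady pairing over the 3 groups: 8 of 18 pairs correlated above 0.1 (−0.14 to 0.27). In 6 of the 18 the tumour of equal number gave the highest r. Vehicle with MEK inhibitor replicates 2, 3, 5 and 6 were among these (r = 0.11 to 0.27), and whether those tumours were paired was not tested. With the replicate block 8, 3 and 7 genes were called in the 3 comparisons, against 8, 4 and 7. Dim probe sets (Mybl2, E2f2, E2f4) limit what can be seen.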

Other observations

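E2F1 can also switch on death genes, and 3 of 6 listed E2F1 apoptosis targets were tested. Bcl2l11, which encodes BIM, rose by 1.23 ± 0.12 in NRAS-off and 1.38 ± 0.12 in MEK inhibitor tumours, and Bbc3, which encodes PUMA, by 0.26 ± 0.07 and 0.30 ± 0.07 (limma adjusted p = 3e-08, 1.92e-08, 0.00189 and 0.00095). Apaf1 gave no call (adjusted p = 0.763 and 0.114). E2f1 itself fell in the first group and gave no call in the second. Of the germline genes silenced by E2F6 1 of 6 was tested: Stag3, a meiotic cohesin gene, rose by 0.18 ± 0.07 in NRAS-off tumours (limma adjusted p = 0.0388) and gave no call under the inhibitor (0.14 ± 0.07, adjusted p = 0.111). E2f6 was called lower in both groups, and a relation between them was not tested.

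Within groups of 6 tumours, 9 relations between members were tested by exact permutation (two-sided), and none passed after Benjamini-Hochberg adjustment. The strongest was E2f7 with E2f8 in MEK inhibitor tumours (Pearson r = 0.89, exact p = 0.0125, adjusted p = 0.1125; Spearman rho = 0.89, exact p = 0.0333, adjusted p = 0.3; r = 0.74 without the 2 tumours farthest from the E2f7 median). E2f1 with E2f8 in the same tumours gave r = 0.83 (exact p = 0.0431, adjusted p = 0.194) and rho = 0.77 (exact p = 0.103, adjusted p = 0.408), with r = 0.80 without the 2 farthest tumours. In vehicle and NRAS-off tumours it gave r of 0.71 and 0.36 (exact p = 0.101 and 0.501), which turned to −0.20 and −0.24 without the 2 farthest. In vehicle and NRAS-off tumours E2f7 with E2f8 gave r of 0.51 and 0.42, which turned to −0.75 and −0.18 without the 2 tumours farthest from the median (exact p with all 6 = 0.293 and 0.443). Foxm1 with Mybl2 gave r of −0.18, −0.69 and −0.38 in vehicle, NRAS-off and MEK inhibitor tumours, with exact p of 0.744, 0.122 and 0.456, and without the 2 farthest tumours r was 0.16, 0.85 and −0.47, so its sign turned in the first 2 groups.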
